A study of Mus musculus with 16 samples.

Results

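Lung endothelial cells (EC) of mice whose primary tumour had been resected (d22) were set against EC of wild-type mice (d0). All cells whose names carry these days were taken, which gave 5901 of the 9036 cells of the series, 3230 at d22 and 2671 at d0. The d22 mice were female C57BL/6N animals with a subcutaneous graft of Lewis lung carcinoma (LLC) cells, an established line from a mouse lung tumour, whose graft was then removed by surgery. The d0 mice were female C57BL/6N animals labelled wild-type. At both days EC were isolated from lung by fluorescence-activated sorting and sequenced as single cells with a 10x Chromium 3′ version 2 kit, which counts each captured transcript by a unique molecular identifier (UMI). The labels list 4 libraries per day, but cell names give the day alone, so each day is 1 pooled sample. Tumour growth, surgery, recovery time and the libraries themselves differ together between the days and cannot be told apart. The labels give no date of sorting, so any difference in it cannot be told apart either.

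EC line every vessel of the lung, from arteries through capillaries to veins, and keep blood fluid, tether cells to the basement membrane and regulate vessel tone. Lung capillaries hold general capillary cells, which act as the progenitors of the bed, and aerocytes, the wide thin cells used for gas exchange. General capillary cells of the mouse lung also carry MHC class II, the complex that presents peptides to CD4 T cells, which is otherwise known mainly from dendritic cells, macrophages and B cells. Class II transcription depends on factors that bind an X box and a Y box in the promoter, together with the co-activator Ciita.

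The endothelial label was borne out by all 12 endothelial markers, each of which had UMIs at both days. Claudin 5 (Cldn5) stood at 5827 CPM (UMIs of the gene per 1000000 UMIs of the day) at d22 against 4794 CPM at d0, VE-cadherin (Cdh5) at 941 against 1101 CPM, and Pecam1 at 1135 against 1312 CPM. After cells that clustered with other cell types were left out, 3178 EC remained at d22 and 2625 at d0, with 27482014 and 22891758 UMIs in total. The median cell held 7658 UMIs and 1333.5 genes at d22 and 7639 UMIs and 1356 genes at d0, and the median mitochondrial share was 1.61% at d22 and 1.88% at d0. Of the cell barcodes, 11 occurred at both days and none was repeated within a day. Of the leukocyte marker lists, pan-leukocyte markers summed to 4.88 CPM at d22 and 4.19 CPM at d0, and macrophage markers to 6.88 and 5.59 CPM. The B cell list held 3.42 CPM at d22 and 1.62 CPM at d0. The monocyte and neutrophil list held 209 CPM at d22 and 227 CPM at d0, of which Plac8 made up 200.1 and 220 CPM. The dendritic cell list held 24.45 CPM at d22 and 23.02 CPM at d0, of which Zbtb46 made up 23.7 and 22.2 CPM, while Flt3, Itgax, Cd209a and Siglech had no UMI at either day. Epithelial markers summed to 190 CPM at d22 against 134 CPM at d0.

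With 1 pooled sample per day no difference has a replicate check, and no p-value was computed. Each ratio is the CPM at d22 over the CPM at d0. Its 95% interval, given in parentheses, comes from the exact binomial comparison of the UMI counts and covers counting error only, with UMIs of 1 cell taken as independent. A gene counts as measured where its level reached 50 CPM in one of the days and its UMIs of both days summed to 200 or more. It is called past 1.5-fold where the ratio or its inverse was at least 1.5 and the interval left out 1. A weaker call, named the 25% rule, asks for a level at least 25% higher, or at least 20% lower, at d22.

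Most genes stood at nearly the same level at both days, and the exceptions were mainly lower at d22. Of 3560 measured genes, 91.3% lay within the bounds of the 25% rule, with a median log2 ratio of 0.01 and 5th and 95th percentiles of −0.38 and 0.24. Ratios above 1 made up 52.1%. Past 1.5-fold, 9 genes (0.253% of those measured) were higher and 60 (1.69%) lower at d22. By the 25% rule 74 (2.08%) were higher and 235 (6.6%) lower. The minimum level bears on the lower set, because 27 of the 60 lower genes reached 50 CPM at d0 only, while 33 did so at both days. Of the 9 higher genes, 7 reached 50 CPM at both days.

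**Figure D1:**
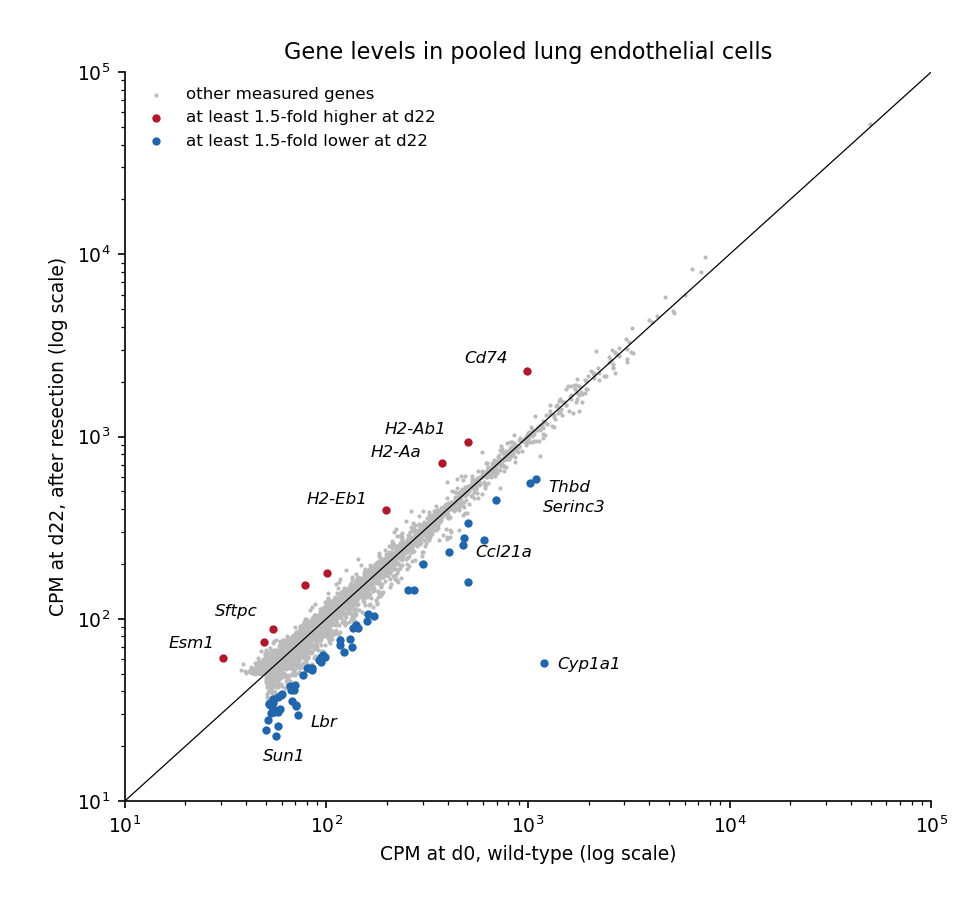
Level of each measured gene at d22 (vertical axis) against d0 (horizontal axis), in CPM of pooled EC, both on log scales, with the line of equal levels. Cd74 at 2280 against 990 CPM and the H2 genes sit above the cloud, and Cyp1a1 at 57.5 against 1207 CPM lies far below it.

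Class II genes made up 6 of the 9 higher genes. Of these, 5 lie on mouse chromosome 17 (GENCODE M21 annotation of GRCm38, the assembly also called mm10). H2-Aa spans chr17:34282744-34287823 on the minus strand, H2-Ab1 chr17:34257689-34269419, H2-Eb1 chr17:34305867-34316674 and H2-DMb1 chr17:34153072-34160230 on the plus strand. Promoter windows of 3 of these genes are shown because these genes were higher together and the class is known to be regulated through such boxes. Each runs from 250 bases before to 50 bases after the RefSeq start (GRCm38.p6), is printed 5′ to 3′ on the gene's strand, and has in capitals every match to the Y box core CCAAT and to an X box consensus, both searched on both strands.
H2-Aa (chr17:34287774-34288073, minus strand): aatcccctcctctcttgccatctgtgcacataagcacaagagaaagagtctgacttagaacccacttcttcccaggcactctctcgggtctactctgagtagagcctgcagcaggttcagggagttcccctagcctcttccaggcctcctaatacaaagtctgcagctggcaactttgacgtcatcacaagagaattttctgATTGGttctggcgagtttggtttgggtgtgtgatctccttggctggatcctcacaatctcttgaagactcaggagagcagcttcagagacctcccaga
H2-Eb1 (chr17:34305617-34305916, plus strand): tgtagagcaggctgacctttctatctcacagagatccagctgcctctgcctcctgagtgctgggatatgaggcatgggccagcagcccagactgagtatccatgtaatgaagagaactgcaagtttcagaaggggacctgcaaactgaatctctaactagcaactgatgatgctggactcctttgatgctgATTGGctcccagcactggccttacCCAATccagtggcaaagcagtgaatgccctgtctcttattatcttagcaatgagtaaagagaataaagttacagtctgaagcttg
H2-DMb1 (chr17:34152941-34153240, plus strand): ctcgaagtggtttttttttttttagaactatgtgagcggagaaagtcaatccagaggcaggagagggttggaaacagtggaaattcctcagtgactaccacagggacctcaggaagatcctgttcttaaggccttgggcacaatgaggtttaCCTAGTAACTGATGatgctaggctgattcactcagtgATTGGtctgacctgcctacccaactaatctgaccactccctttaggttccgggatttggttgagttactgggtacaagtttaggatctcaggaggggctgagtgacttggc
The Y box core lay on the opposite strand at position −48 of H2-Aa, −59 of H2-Eb1 and −61 of H2-DMb1, counted from the first base before the start, and H2-Eb1 held a further match on its own strand at −35. It occurred in 37.9% of the 27025 promoter windows, whereas the X box consensus, found at −98 of H2-DMb1, occurred in 17 windows (0.0629%). H2-DMa has 2 windows, which are not printed: 1 held no match and the other only a Y box core at −198. A match is a run of letters and does not show that a factor binds there.

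The antigen-binding chains of class II were all higher at d22. The α chain H2-Aa had 717 CPM at d22 against 373 CPM at d0 (ratio 1.92, 1.87 to 1.97). Its β partner H2-Ab1 had 930 against 505 CPM (1.84, 1.80 to 1.88). H2-Eb1, the β chain of the E molecule, had 396 against 198 CPM (2.002, 1.93 to 2.07). The invariant chain Cd74, which fills the groove of new class II molecules, had 2280 against 990 CPM, and its ratio of 2.30 (2.27 to 2.34) was the highest of all measured genes. H2-DMa and H2-DMb1, the chains of the exchange factor that loads peptide, had ratios of 1.96 and 1.76. All 6 measured members of the list of 13 were past 1.5-fold, with a median log2 ratio of 0.96 against 0.01 for all measured genes.

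Of 4 regulators of class II transcription, 3 had ratios whose intervals hold 1, and Rfx5 was lower. Ciita had 7.68 CPM at d22 and 7.08 CPM at d0, a ratio of 1.08 (0.880 to 1.34). Rfxank at 25.5 and 22.9 CPM (1.11) and Rfxap at 24.8 and 22.4 CPM (1.11) had intervals that hold 1. Rfx5, the DNA-binding subunit of the same complex, had 3.20 CPM at d22 and 4.85 CPM at d0 (0.660, 0.493 to 0.881). In cells without a leukocyte or epithelial UMI the ratio of Ciita was 0.795, on the other side of 1. These 4 genes lay below the measured minimum, so their ratios rest on 88 to 700 UMIs at d22 and 111 to 524 UMIs at d0.

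The class II difference was seen both in how many cells had UMIs and in how many UMIs those cells held. Cd74 UMIs were found in 62.4% of EC at d22 and 49.1% at d0, and in 51.7% and 39.5% after every cell had been thinned to 2500 UMIs. As a measure of free RNA in the droplets, Sftpc, a surfactant gene that EC are not known to express, was found in 30.4% of EC at d22 and 20.2% at d0, and in 15.8% and 9.90% after thinning. Cells with Cd74 held 31.6 UMIs of it on average at d22 and 17.6 at d0. At the 90th percentile of cells Cd74 reached 86.5 per 10000 UMIs at d22 against 35.5 at d0. H2-Eb1 was found in 41.8% of cells at d22 and 27.4% at d0, and in 33.8% and 20.7% of thinned cells. The top 10% of cells held 60.7% of all Cd74 UMIs at d22 and 66.3% at d0, so at both days the gene was concentrated in a minority of cells.

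**Figure D2:**
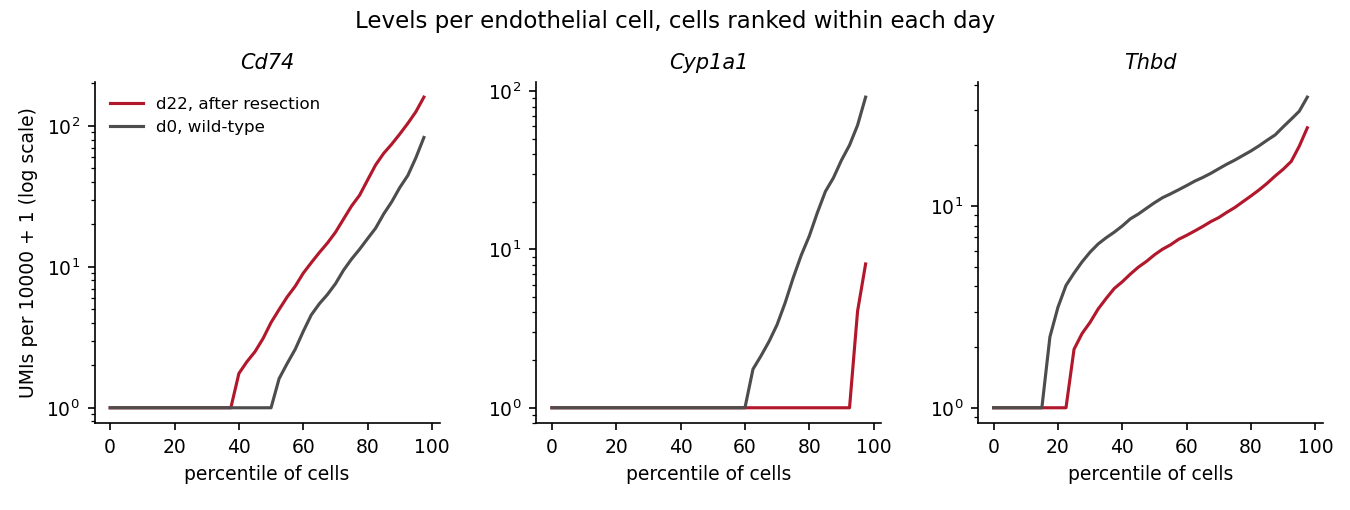
UMIs per 10000, with 1 added, of Cd74, Cyp1a1 and Thbd (vertical axes, log scale) at each percentile of EC ranked within d22 and within d0 (horizontal axes). The d22 curve of Cd74 leaves the baseline at lower percentiles and stays above d0, reaching 86.5 against 35.5 at the 90th percentile, while the d22 curves of Cyp1a1 and Thbd lie below those of d0.

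By class of EC, Cd74 had its highest levels in general capillary-like cells. In 1715 general capillary-like cells at d22 and 1377 at d0, Cd74 had 3852 against 1649 CPM (2.34, 2.30 to 2.38), and all 6 class II genes were past 1.5-fold beside a background of 0.364% of genes higher in that class. In 125 venous-like cells at d22 and 133 at d0, Cd74 had 2355 against 951 CPM (2.48) and H2-Aa 815 against 367 CPM (2.22). Unnamed clusters had Cd74 at 1424 against 652 CPM (2.18) and Malat1-poor cells at 2407 against 899 CPM (2.68). In Malat1-poor cells the B cell list held 121.6 CPM at d22 and 15.997 CPM at d0, and the pan-leukocyte list 214.6 and 123.6 CPM. The T and NK cell list (14.3 and 78.5 CPM) and the monocyte and neutrophil list (286 and 313 CPM) were lower there at d22. The part of leukocyte RNA in the Cd74 ratio of Malat1-poor cells was not tested. Of the 9 genes higher over all EC, 7 of 8 measured were past 1.5-fold in general capillary-like cells and 6 of 8 in venous-like cells, where 7.62% of genes were higher. In aerocyte-like cells 3 of 3 measured passed, Cd74 among them (background 0.628%), and in arterial-like cells 2 of 3 (background 8.44%). The 9 genes were picked from the pool of all these cells, so counts by class describe them and are no separate support. Aerocyte-like cells had far lower levels, with Cd74 at 172 CPM at d22 and 97.3 CPM at d0 (1.76, 1.60 to 1.95). A Cd74 UMI was found in 42.9% of aerocyte-like cells at d22 and 29.3% at d0, and in 15.7% and 12.6% after thinning, near the 13.1% and 9.35% of thinned aerocyte-like cells with a UMI of Sftpc. Free RNA of Cd74 itself was not measured, so these shares cannot separate it from expression. Cd74 in aerocyte-like cells is not read as expression here. Arterial-like cells, 71 at d22 and 66 at d0, had Cd74 at 168 and 62.3 CPM from 127 and 35 UMIs. Their shares with a UMI were 35.2% at d22 and 22.7% at d0, or 18.3% and 19.7% thinned, and no order is read from them.

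The general capillary-like class joined clusters that weigh differently at the days. At d22 most of it lay in clusters 4, 1 and 2 (464, 434 and 351 cells), and at d0 in clusters 5, 1 and 2 (379, 308 and 300 cells). Cluster 4 was led by class II genes, and Npr3 and Cyp1a1 were among the leading genes of cluster 5, so their sizes follow from the genes compared here and are not a separate result. With classes weighted to their shares at d0, and under 8 other settings, the ratio of Cd74 stayed between 2.19 and 2.33. Class weighting keeps the mix of clusters within a class, so it does not reweigh clusters 4 and 5. Settings that change only the minimum level cannot move a ratio.

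Sftpc, a transcript of alveolar type II cells, which in the mouse also carry class II, was higher at d22 too, with 87.9 against 54.6 CPM (1.61, 1.504 to 1.73), and 4.34 over all deposited cells. In general capillary-like cells Sftpc had 102 CPM at d22 and 60.8 CPM at d0, and in aerocyte-like cells 63.0 and 41.1 CPM. In the 1495 cells at d22 (47.0%) and 1531 cells at d0 (58.3%) without a UMI of any leukocyte or epithelial marker, Cd74 had a ratio of 2.19 and H2-Ab1 one of 1.79. The part of epithelial RNA in the class II difference was not tested further.

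**Figure D3:**
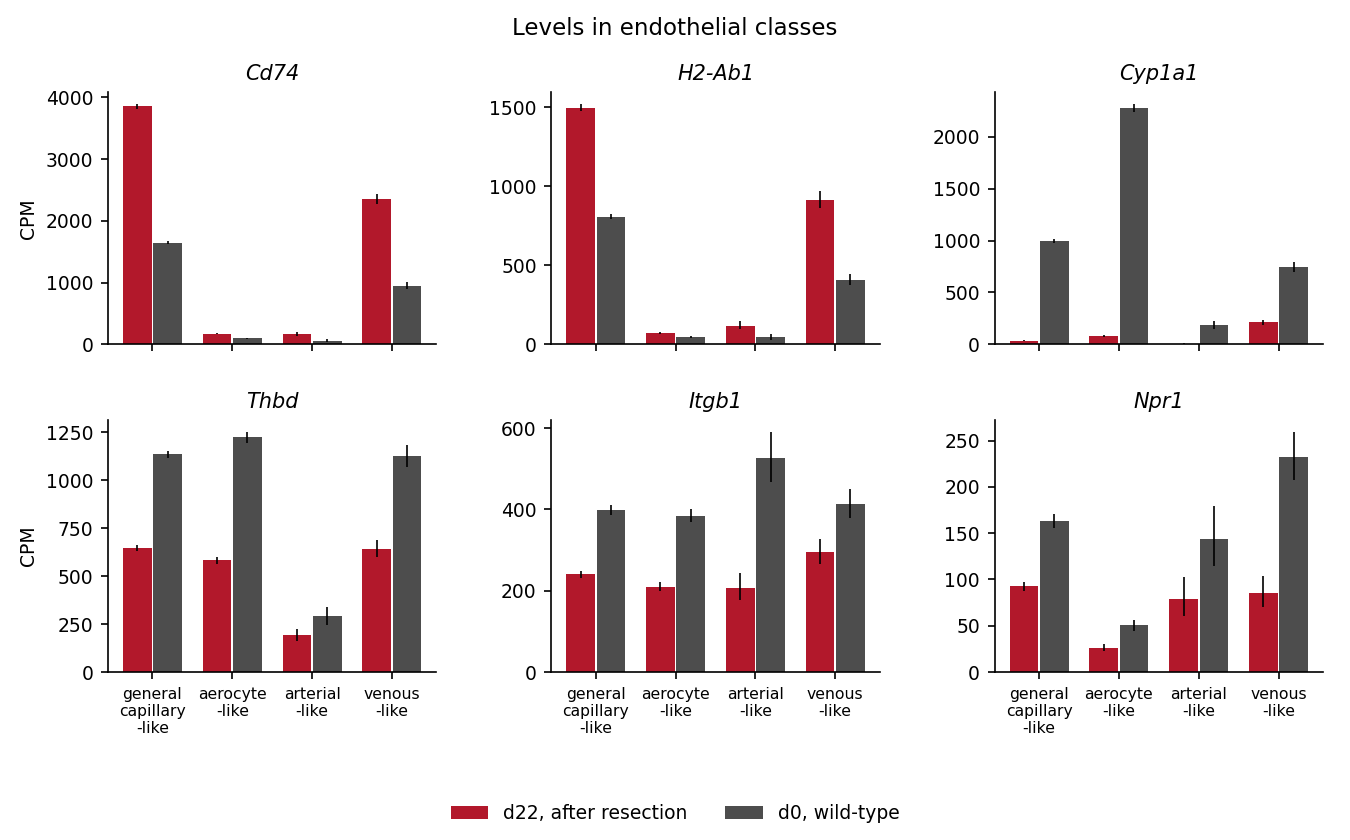
Levels in CPM (vertical axes) of Cd74, H2-Ab1, Cyp1a1, Thbd, Itgb1 and Npr1 in 4 classes of EC (horizontal axes), d22 left of d0, with exact Poisson 95% intervals that cover counting error only. Cd74 reaches 3852 against 1649 CPM in general capillary-like cells and is low in aerocyte-like cells, while Thbd is lower at d22 in each class shown.

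Genes of the MHC class I pathway, which presents peptides from inside the cell to CD8 T cells, were also higher, by less. Of 16 measured members, 15 lay above 1, beside 52.1% of all measured genes, and the median log2 ratio was 0.35. By the 25% rule 9 were higher and 1 lower, beside 2.08% and 6.6% of all measured genes. The heavy chains H2-K1 and H2-D1 had 2950 against 2164 CPM (1.36) and 8289 against 6513 CPM (1.27). The light chain B2m had 9684 against 7589 CPM (1.28). The non-classical H2-T23 had 391 against 264 CPM (1.48), and Tap1, a subunit of the peptide transporter, 186 against 126 CPM (1.48). Canx, a chaperone of many glycoproteins of the endoplasmic reticulum, lay in the other direction at 168 against 234 CPM (0.717).

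The proteasome subunits that interferon induces showed the same direction, and the constitutive ones had a median near 1. Psmb8, Psmb9 and Psmb10, the catalytic subunits of the immunoproteasome, had ratios of 1.19, 1.252 and 1.197, and all 5 measured genes of the list exceeded 1 (median log2 ratio 0.25). Psmb5 and Psmb6, the constitutive subunits that Psmb8 and Psmb9 replace, had 0.992 and 1.04. Psmb7, which Psmb10 replaces, ran from 1.15 to 1.19 under 9 alternatives of processing, against 1.17 to 1.21 for Psmb10. The median of the 14 constitutive genes was 0.04, and 13 of them lay above 1. Of 13 measured interferon γ response genes, 12 lay above 1 (median 0.16), beside 52.1% of all measured genes. By the 25% rule 3 were higher, beside 2.08% of all measured genes. These were the GTPases Igtp (155 against 112 CPM, 1.39), Gbp2 (228 against 181 CPM, 1.26) and Irgm1 (1.26). Irf1, a transcription factor of that response, had 1.02. Type I interferon genes had a median of 0.05, with Ifit1 at 80.9 against 101 CPM (0.803) and Ifi47 at 286 against 225 CPM (1.27).

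Cyp1a1 had the lowest ratio of all. This cytochrome P450 oxidises aromatic compounds and is the best known target of the aryl hydrocarbon receptor (Ahr), a sensor of such ligands. It had 57.5 CPM at d22 against 1207 CPM at d0 (0.0476, 0.0452 to 0.0501). The receptor Ahr itself had 168 CPM at d22 and 156 CPM at d0 (1.08). Of the list of 10, only Cyp1a1, Ahr and Nfe2l2 (0.9503) were measured, so no other target bears on the pathway. The promoter window of Cyp1a1 is shown with its single match to the xenobiotic response core GCGTG, searched on both strands, in capitals at position −54.
Cyp1a1 (chr9:57697363-57697662, plus strand, GRCm38.p6): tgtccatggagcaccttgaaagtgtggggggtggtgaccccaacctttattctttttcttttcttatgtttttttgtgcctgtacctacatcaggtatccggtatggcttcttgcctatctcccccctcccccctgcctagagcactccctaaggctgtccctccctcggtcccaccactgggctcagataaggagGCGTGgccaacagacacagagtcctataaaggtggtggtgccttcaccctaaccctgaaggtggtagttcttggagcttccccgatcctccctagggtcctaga
That core is short and occurred in 32.5% of all promoter windows, and sites farther upstream were not searched.

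The Cyp1a1 difference held in each of 4 classes. It had 37.3 CPM at d22 against 998 CPM at d0 in general capillary-like cells (0.0374), 82.4 against 2273 CPM in aerocyte-like cells (0.0362) and 6.62 against 185 CPM in arterial-like cells (0.0357), the last from 5 UMIs at d22. Venous-like cells had 213 against 745 CPM, a ratio of 0.286 (0.249 to 0.327) whose interval does not meet those of the capillary classes. Thinned to equal depth, 5.10% of EC had a Cyp1a1 UMI at d22 against 31.2% at d0, and unthinned 7.36% against 39.5%, where Sftpc as free RNA had 15.8% and 9.90% thinned. The share over all EC at d22 lay below that of Sftpc, and a low share alone cannot separate free RNA from expression in few cells. In venous-like cells at d22 the share was 21.6% thinned against 15.2% for Sftpc. Cells with the gene held 6.75 UMIs of it at d22 and 26.7 at d0. Over all deposited cells Cyp1a1 had 1192 CPM at d0 and between 34.4 and 56.6 CPM at d15 (primary tumour), d22 and d36 (metastasis).

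**Figure D4:**
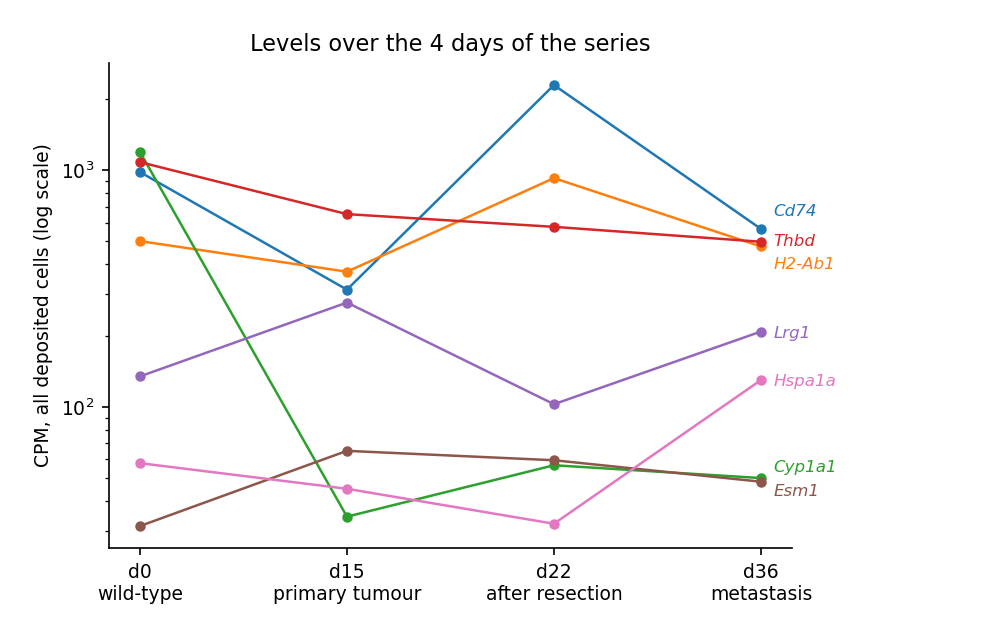
Levels over all deposited cells in CPM (vertical axis, log scale) of 7 genes at d0, d15, d22 and d36 (horizontal axis). Cd74 is highest at d22 (2284 CPM) and lower at d15 and d36 than at d0, Cyp1a1 is high at d0 only (1192 CPM), and Thbd is lower at each later day.

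Among genes that keep blood fluid, Thbd (thrombomodulin), which turns thrombin from a clotting into an anticoagulant enzyme, differed most. It had 581 CPM at d22 against 1091 CPM at d0 (0.533, 0.522 to 0.543). The median cell held 4.74 per 10000 UMIs at d22 and 9.39 at d0, and UMIs were found in 76.6% of cells at d22 and 83.8% at d0 (60.3% and 74.9% thinned), against 15.8% and 9.90% for Sftpc. The ratio was 0.569 in general capillary-like, 0.475 in aerocyte-like, 0.661 in arterial-like and 0.570 in venous-like cells. Pros1, protein S, the cofactor of the same anticoagulant pathway, had 94.4 against 138 CPM (0.686). All 10 measured genes of coagulation and fibrinolysis lay below 1 (median log2 ratio −0.23), beside 1704 of the 3560 measured genes. By the 25% rule 3 of the 10 were lower, beside 6.6% of all measured genes. Von Willebrand factor (Vwf, 0.890), tissue factor pathway inhibitor (Tfpi, 0.925) and Plat (0.959) stood near their d0 level.

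Of 11 measured vasoactive receptors and enzymes, 3 were lower by the 25% rule and none higher, beside 6.6% lower among all measured genes, and the list's median log2 ratio was −0.02. Npr1, the guanylyl cyclase receptor of atrial natriuretic peptide, had 70.0 CPM at d22 against 134 CPM at d0 (0.522, 0.492 to 0.552). Npr3, which clears the same peptides, had 89.1 against 143 CPM (0.622). Ace, the angiotensin-converting enzyme, had 446 against 692 CPM (0.644), with 0.658 in general capillary-like, 0.580 in aerocyte-like and 0.652 in venous-like cells. The other 8 did not pass the 25% rule, among them the endothelin gene Edn1 (1.21) and its receptor Ednrb (0.988).

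Of 8 measured integrin genes, 2 were lower by the 25% rule (median log2 ratio −0.15), and of 14 junction genes 2 were lower and 1 higher (median −0.02), beside 6.6% lower and 2.08% higher among all measured genes. Integrin β1 (Itgb1) had 233 CPM at d22 against 404 CPM at d0 (0.577, 0.559 to 0.596), and Itgb5 34.4 against 54.0 CPM (0.637). Outside these lists, and named after its value was seen, paxillin (Pxn), an adaptor of focal adhesions, had 71.8 against 116 CPM (0.617). α-catenin (Ctnna1), which ties cadherins to actin, had 279 against 480 CPM (0.581), and β-catenin (Ctnnb1) 119 against 162 CPM (0.737). Moesin (Msn), which links membrane to actin, likewise named, had 334 against 504 CPM (0.662). Among the other junction genes, Cldn5 had a ratio of 1.22, Esam one of 1.08 and the connexin gene Gja4 563 against 395 CPM (1.42). Timp3, an inhibitor of matrix proteases, had 143 against 254 CPM (0.564).

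The heat shock list had 12 of 13 measured members below 1 (median log2 ratio −0.17), beside 1704 of the 3560 measured genes. The inducible Hspa1a had 31.8 CPM at d22 against 58.8 CPM at d0 (0.541, 0.496 to 0.589). Hspb1 had 373 against 476 CPM (0.784), and the constitutive Hspa8, the most abundant of the list, 1341 against 1665 CPM (0.805), which does not pass the 25% rule. Bag3, a co-chaperone, lay above 1 at 1.11. In the other direction stood Cirbp, with 213 against 143 CPM (1.49, 1.42 to 1.55), and Rbm3, with 345 against 248 CPM (1.40), RNA-binding proteins known to be induced by mild cold. These 2 genes were chosen after their values were seen. The Hspa1a promoter window is shown because it carries a pair of heat shock elements facing each other, GAANNTTC, in capitals at position −104, a pattern found in 7.95% of all windows.
Hspa1a (chr17:34972107-34972406, minus strand, GRCm38.p6): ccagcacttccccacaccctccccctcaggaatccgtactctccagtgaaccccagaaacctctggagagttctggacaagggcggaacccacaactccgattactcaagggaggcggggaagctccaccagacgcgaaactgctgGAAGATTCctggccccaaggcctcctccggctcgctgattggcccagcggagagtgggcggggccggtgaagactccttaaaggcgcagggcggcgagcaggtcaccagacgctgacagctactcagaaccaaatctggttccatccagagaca

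Most other low ratios belonged to genes of intermediate or low level with varied roles. Sun1, an inner nuclear membrane protein that connects the lamina to the cytoskeleton, had 22.8 CPM at d22 against 55.9 CPM at d0 (0.407), and Lbr, the lamin B receptor, 29.8 against 72.1 CPM (0.413). Dctn1, the largest dynactin subunit, had 33.5 against 70.3 CPM (0.477), and Ddb1, an adaptor of a ubiquitin ligase used in DNA repair, 33.0 against 70.9 CPM (0.466). Of 9 measured nuclear envelope genes, Sun1, Lbr and Lmna (0.794) were lower by the 25% rule, beside 6.6% of all measured genes, and Syne1 had 1.11. Of 16 dynein and dynactin genes 1 was lower by that rule, Dctn1, which is near the share of all genes, and Dctn2 had 1.03. Serinc3, a membrane protein of high level, had 559 against 1027 CPM (0.544, 0.533 to 0.555) and Eif4g2, a translation factor, 145 against 273 CPM (0.530). Further genes among the 25 lowest were Sh3tc1 (0.449), Camk2n1 (0.491), Slc38a10 (0.527), Kctd20 (0.537), Trim35 (0.539), Lrrc32 (0.544), Flii (0.566), Rassf3 (0.573), Irf2bpl (0.587), the Notch ligand Dll1 (0.588) and Hdgf (0.589).

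These low ratios were shared among classes that were counted from separate cells. Of the 60 genes, 52 were measured in general capillary-like cells, where 52 lay below 1 and 45 past 1.5-fold, beside a background of 1.87% of genes lower in that class. In aerocyte-like cells 48 were measured, 48 lay below 1 and 42 passed 1.5-fold, against a background of 2.91%. In venous-like cells 44 of 44 lay below 1 with 29 past 1.5-fold (background 9.24%), and in arterial-like cells 20 of 22 with 13 past 1.5-fold (background 8.36%). The genes were picked from the pool of all these cells, so the counts describe them and are no separate support.

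Genes lower at d22 were longer than measured genes as a whole, in 3′ untranslated regions (UTRs) as in transcript and gene span. For the 235 genes lower by the 25% rule the longest annotated 3′ UTR had a median of 1619 bases, against 551 bases for the 74 genes higher and 945 bases for all measured genes (GENCODE M21, which holds 97.4% or more of the genes of each set). In the same order the median longest transcript was 3734, 1793 and 2429 bases, and the median gene span 30578, 8226 and 17170 bases. Among 857 genes whose 3′ UTR was 1964 bases or longer, 8.98% were lower and 1.17% higher by the same rule. Among 857 genes with 3′ UTRs of at most 407 bases, 2.92% were lower and 2.68% higher. The kit counts transcripts from their 3′ ends, and whether any of these lengths bears on the ratios was not tested.

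**Figure D5:**
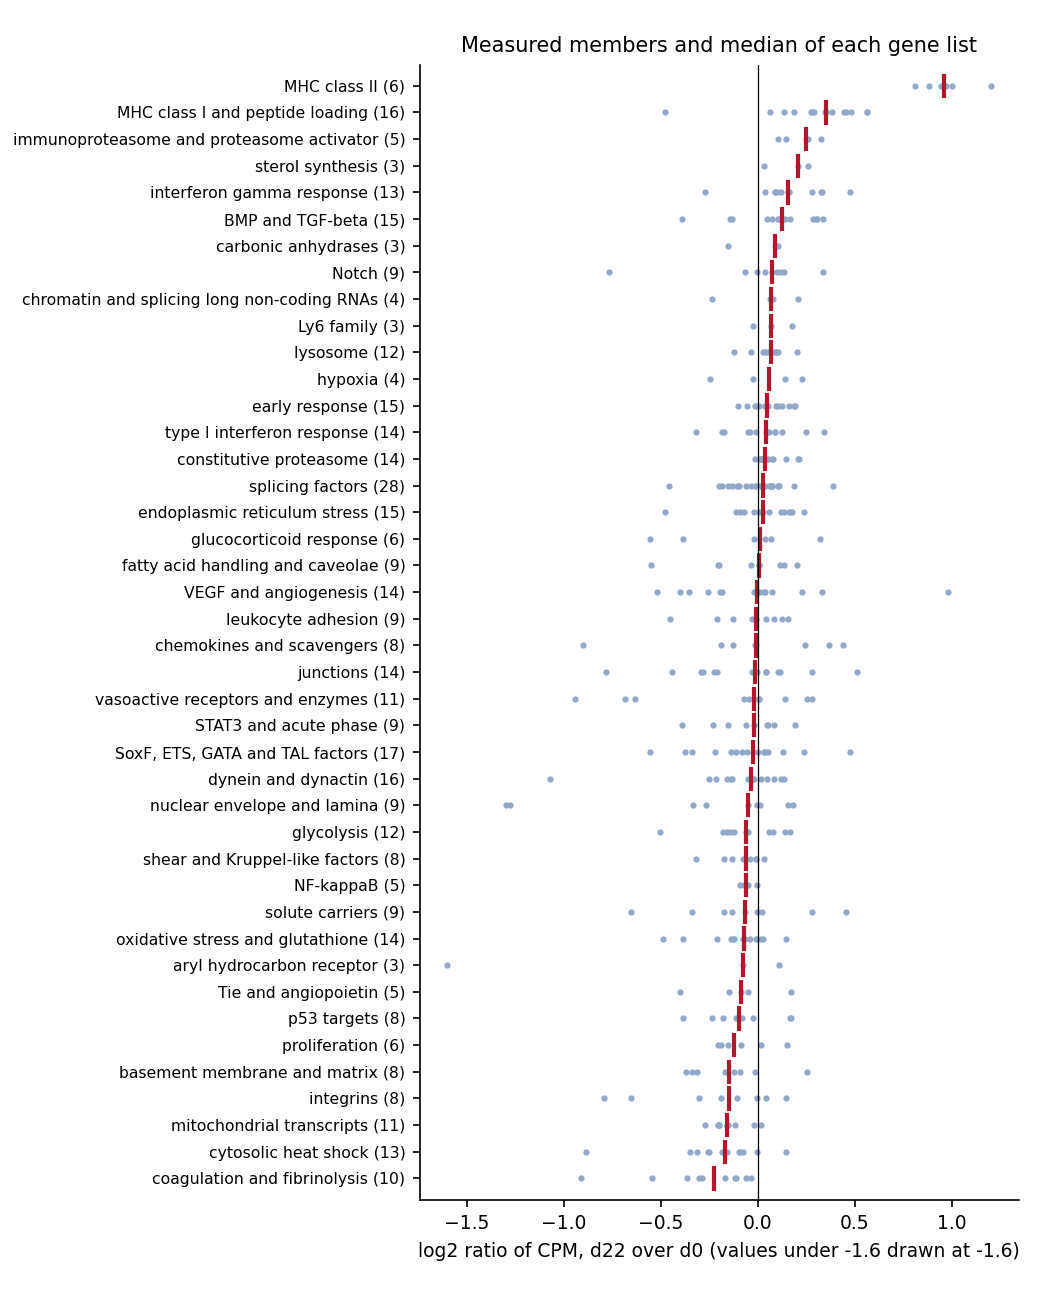
log2 ratio of d22 over d0 (horizontal axis) of each measured member (points) and their median (bars) for the gene lists shown, each with at least 3 measured members (rows, number measured in brackets). MHC class II lies highest with a median of 0.96, class I follows at 0.35, and coagulation and fibrinolysis lies lowest at −0.23.

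Regulators of endothelial identity and growth varied by gene. Esm1, a secreted proteoglycan known from endothelial tip cells, had 60.5 CPM at d22 against 30.7 CPM at d0 (1.97, 1.81 to 2.16), but its UMIs lay in 6.42% of cells at d22 and 4.57% at d0 (4.78% and 2.97% thinned), below the 15.8% and 9.90% of Sftpc. Cells with it held 8.16 UMIs of Esm1 on average at d22 and 5.85 at d0. Most came from unnamed clusters, where it had 299 against 169 CPM (1.77), and general capillary-like cells had 21.6 against 16.1 CPM (1.34). The transcription factors Fli1 (53.9 against 79.1 CPM, 0.681) and Erg (0.770) were lower, and Sox18 (310 against 222 CPM, 1.39) higher. The receptors Aplnr (0.698), Robo4 (0.758) and Tie1 (0.756) were lower, while Kdr, the main receptor of VEGF, had 397 and 386 CPM (1.03). The caveolar gene Cav2 had 783 against 1145 CPM (0.684) and its partner Cav1 1420 against 1455 CPM (0.976).

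Of 15 measured BMP and TGF-β genes, 12 lay above 1 (median 0.13), beside 52.1% of all measured genes. By the 25% rule 1 was higher, Smad7, an inhibitory SMAD, at 1.26, and 1 was lower. Smad6 had 1.23. Lrg1, a secreted modulator of TGF-β signalling, had 104 against 137 CPM (0.763). None of the 15 early response genes, none of the 8 shear-related genes and none of the 5 NF-κB genes passed the 25% rule, where shares of 2.08% higher and 6.6% lower among all genes would leave few or none in lists this short. The shear-induced factor Klf2 had 2498 against 2637 CPM (0.947). The 11 measured mitochondrial transcripts had a median of −0.16, beside the lower mitochondrial share per cell at d22. Xist, expressed from the inactive X chromosome in female cells, had 842 CPM at d22 and 730 CPM at d0 (1.15). No circadian clock gene reached the measured minimum.

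Ccl21a, the chemokine of lymphatic EC, had 254 CPM at d22 against 474 CPM at d0 (0.536), but the top 10% of cells held 98.2% of its UMIs at d22 and 99.2% at d0. Lymphatic-like cells were 18 of 3178 EC at d22 (0.566%, Clopper-Pearson 95% interval 0.336 to 0.894) and 22 of 2625 at d0 (0.838%, 0.526 to 1.27), under the 50 cells required for a class. In general capillary-like cells the ratio was 1.07, in aerocyte-like cells 2.21, and without cells holding a leukocyte or epithelial UMI it was 0.122. Fewer lymphatic-like cells and less Ccl21a per cell cannot be told apart here.

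Shares of classes depended on the clustering and, with 1 pooled sample per day, carry counting intervals only. General capillary-like cells were 54.0% at d22 (52.2 to 55.7) and 52.5% at d0 (50.5 to 54.4), and aerocyte-like cells 17.1% (15.8 to 18.4) and 17.5% (16.1 to 19.03). Venous-like cells were 3.93% at d22 (3.28 to 4.67) and 5.07% at d0 (4.26 to 5.98), arterial-like cells 2.23% and 2.51%, and cells led by proliferation genes 0.724% and 1.10%. At resolution 0.5 general capillary-like cells were 66.8% at d22 (65.1 to 68.4) and 62.6% at d0 (60.8 to 64.5), and at resolution 2.0 they were 55.02% (53.3 to 56.8) and 50.2% (48.3 to 52.2). Malat1-poor cells, which held little of this nuclear RNA, were 4.06% at d22 (at most 4.80) and 6.25% at d0 (at least 5.35). Unnamed clusters, among them ones led by Slc6a6 and Esm1, were 17.4% at d22 (16.1 to 18.8) and 14.2% at d0 (12.9 to 15.6). The order was the other way at resolution 0.5 (4.82% and 6.95%) and at 2.0 (17.9% and 19.7%). Without the differing genes the shares were 31.5% and 31.0%, so no order is read from them. Both Esm1 and Slc6a6 (117 against 85.3 CPM, 1.37) differ between the days.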

How the data were processed

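The authors deposited raw counts, whole numbers of UMIs per gene and cell, with no scaling. Per the submitters' processing notes they used Cell Ranger 2.1.1 and build mm10; annotation release and cell filters: not given in the sources used here. The table's 28692 rows each name a gene, and 16986 had a UMI in the EC. Filters of 300 genes or more and mitochondrial UMIs under 10% removed no cell. Scrublet scoring called 2 of 5901 cells doublets (0.0339%), so the caller did not work and doublets remain; these 2 cells, 94 cells in clusters of other cell types and 2 cells with at least 2% of UMIs from other markers were left out. Cells of both days were clustered with scanpy 1.11.5 (2000 variable genes, 30 components, 15 neighbours, Leiden resolution 1.0, leidenalg 0.10.2) on Python 3.11.15. Clusters were called "like" a type by marker lists. The naming rules were set after the clusters were seen: leading genes detected in 25% of cells, 10 read per cluster, Malat1 under 25% of the median cluster kept apart, and at least 1 leading marker of its own for every class but general capillary; a difference from the study may come from these rebuilt names.

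UMIs were summed over EC of each day and divided by their total (CPM). Classes needed 50 cells per day and 100 UMIs per gene. Intervals are 95%. Thinned shares use 2500 UMIs per cell; no EC was shallower (lowest 2572 at d22 and 2576 at d0). Interval coverage was checked on simulated counts. TMM factors came from edgeR 4.0.16 in R 4.3.3 as an alternative scaling; no count model was fitted, since each day is 1 pooled sample. The names show no library, so no spread between libraries was measured. Members, gene lists and naming rule were chosen with earlier results of these data known. Named genes are the 12 highest and 25 lowest ratios past 1.5-fold (9 were higher), leaving out predicted genes, pseudogenes, ribosomal, mitochondrial and immunoglobulin genes (6 of the 60 lower), the 3 members of a list farthest from 1, the 4 highest and 4 lowest of a class, a fixed panel, and others named as list members or as chosen after their values were seen. Promoter windows come from RefSeq and matched 2711 of 3560 measured genes. A few named genes and 1 gene list are not reported here.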

Additional observations from a re-analysis of the deposited data

Results flagged for a closer look

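Of the genes named, 2 were past 1.5-fold in opposite directions in different classes of EC. These differences between classes were not tested, and 20 genes in all showed such a split, most of them in the small arterial-like and venous-like classes. Tap1 had 1.60 in general capillary-like and 1.42 in aerocyte-like cells but 0.544 in arterial-like cells. Emp2, a membrane protein, had 3.14 in arterial-like cells, with 291 CPM at d22 against 92.6 CPM at d0, and 0.648 in general capillary-like cells. Emp2 is on the aerocyte marker list, whose members summed to 1925 CPM at d22 and 1262 CPM at d0 in arterial-like cells; the part of aerocyte RNA in this result was not tested. Arterial-like cells numbered 71 at d22 and 66 at d0, and 8.44% of genes there were past 1.5-fold upward and 8.36% downward.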

How the results depend on the processing

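Under the 9 alternatives (TMM scaling, thinning, other filters on cells and levels, and class weighting) 7 of 147 named ratios crossed 1, none of them past the 25% rule: among these Ciita went to 0.795 and Ifit1 to 1.02 without cells holding leukocyte or epithelial UMIs, and Nfe2l2 to 1.06 with thinned cells. Ratios of 2 genes moved by over 1.5 times: Ccl21a to 0.122 without cells holding leukocyte or epithelial UMIs and Sftpc to 4.34 over all deposited cells. Filters on level change which genes count as measured and cannot move a ratio. Counts of genes depended on the filter. Genes past 1.5-fold upward were 15 with thinned cells, 625 with no filter beyond 10 UMIs and 4 at 200 CPM or more, and downward 1023 and 13 under the last 2. By the 25% rule, 131 were higher without cells holding leukocyte or epithelial UMIs, 117 thinned, 1173 unfiltered and 24 at 200 CPM, and 1905 and 48 were lower under the last 2. The class II median was 0.85 unfiltered (12 members) and the coagulation median −0.60 at 200 CPM (2 members). Shares followed the clustering. General capillary-like cells were 66.8% at d22 and 62.6% at d0 at resolution 0.5, 55.02% and 50.2% at resolution 2.0, and 43.8% and 41.6% in a clustering that did not use genes differing between days, chosen after seeing the data. Aerocyte-like cells were 15.4% and 14.2% at resolution 2.0, arterial-like cells 6.15% and 6.20% at resolution 0.5, and proliferating cells 0.406% and 0.681% without the differing genes. No paired analysis was possible because the cell names carry no library number.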

Other observations

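In small classes the genes farthest from 1 included ones known from other cell types. In Malat1-poor cells, 129 at d22 with a median of 4001 UMIs and 164 at d0 with 3571.5, the chemokines Ccl4, Ccl3 and Ccl6, known from macrophages, had 1581 against 113 CPM, 765 against 77.1 CPM and 619 against 65.4 CPM. Each had UMIs in 1 cell at d22 and 1 cell at d0, so single cells carry these values. In venous-like cells the smooth muscle genes Tagln and Acta2 had 118 against 5.87 CPM and 116 against 24.9 CPM. Tagln had UMIs in 6 of 125 cells at d22 and Acta2 in 3, and each in 1 of 133 cells at d0. In arterial-like cells Car4, a marker of aerocytes, had 290 CPM at d22 against 58.7 CPM at d0, with UMIs in 23 of 71 and 19 of 66 cells. In the same class the interferon-induced Ifit1, Ifit3 and Isg15 lay lower, at 41.0 against 253 CPM, 37.0 against 155 CPM and 138 against 384 CPM. Ifit1 had UMIs in 6 of 71 cells at d22 and 6 of 66 at d0, so few cells carry its values. Ifit3 had UMIs in 7 and 12 of these cells, and Isg15 in 23 and 22. Over all EC Isg15 had a ratio of 1.04.

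In aerocyte-like cells the interferon-induced GTPase Iigp1 had the highest ratio, 68.3 CPM at d22 against 29.4 CPM at d0 (2.32, 1.95 to 2.77), while over all EC it had 1.07. The lowest ratios there after Cyp1a1 were Pald1 (23.6 against 66.8 CPM, 0.354), Ddb1 (0.431) and Stat6 (27.2 against 62.9 CPM, 0.433).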
